A study of Homo sapiens with 2 samples.

Results

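The S100 genes encode small calcium-binding proteins, and 9 of the 10 family members considered were listed among the 11976 genes measured in Huh7 cells with and without an shRNA against USP22. The members were taken by gene symbol: S100A8, S100A9, S100A4, S100A6, S100A10, S100A11, S100A13, S100A14, S100A16 and S100P. S100A8 was absent from both tables, so its transcript level is not analysed here. The list was selected on family name and with the FPKM values and ratios of these libraries already known, S100A9 being among the lowest ratios of all genes, so what follows describes the members and tests nothing.

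Huh7 is an established human hepatocellular carcinoma cell line. Messenger RNA was sequenced from 1 library of Huh7 cells given a control shRNA and from 1 library of Huh7 cells given an shRNA against USP22, a deubiquitinase that acts on histones within the SAGA coactivator complex. Dose, time after shRNA delivery and the number of shRNA sequences are not given in the sources used here. USP22 itself stood at 58.1 FPKM (fragments per kilobase of transcript, scaled to sequencing depth, the unit the values were read as) with the control shRNA and 7.67 FPKM after USP22 shRNA. All 11 hepatocyte and hepatoma markers looked for were listed, from 17.8 FPKM (HNF4A) to 781 FPKM (APOA1) with the control shRNA. Being listed does not by itself test the liver label. By the rule given below, 5 were at least 2-fold lower (TTR, SERPINA1, TF, HNF4A and APOA1) and 1 higher (FGG), against 12.2% and 24.1% of all genes. With the trend described next removed, 4 were lower (TTR, TF, SERPINA1 and ALB) and 0 higher, against 8.91% and 8.46%. ALB stood at 89.9 FPKM with the control shRNA and 72.8 FPKM after USP22 shRNA, a log2 ratio of -0.30 (-1.40 with the trend removed). AFP stood at 270.1 and 347 FPKM, a log2 ratio of 0.36 (-0.92 with the trend removed). The summed level of the 11 markers was 2476 FPKM with the control shRNA and 1856 FPKM after USP22 shRNA. Across 10166 genes the log2 ratio was the lower the higher the GC content of the transcript (Spearman rho -0.70, a description, since genes are not replicates). Ratios with this trend removed are therefore given for every member and for most other genes named with a ratio. With 1 library per group there is no replicate check, depth is unknown, and fewer cells of a type cannot be told apart from less RNA per cell.

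An S100 protein carries a pair of EF-hand loops, and binding of calcium opens a surface through which most members hold a partner protein. Most act as homodimers or heterodimers inside the cell, and several are also released and bind receptors such as AGER (RAGE) or TLR4. Most of the family lies in a cluster on the long arm of chromosome 1, while S100P lies on chromosome 4. S100A8 and S100A9 are best known from neutrophils and monocytes, where they form calprotectin, and are also made by some epithelial and tumour cells.

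The 9 members added up to 2030 FPKM with the control shRNA and 1405 FPKM after USP22 shRNA, which is 0.831% and 0.642% of the summed FPKM of all listed genes. S100P, S100A11, S100A10, S100A6 and S100A9 led in the control, all between 268 and 643 FPKM. In the USP22 shRNA library S100A11 led at 409 FPKM, followed by S100P, S100A6 and S100A10, and S100A9 had dropped out of this group. Within the family, S100A9 made up 13.2% of the members' summed FPKM with the control shRNA and 1.53% in the USP22 shRNA library, and S100A11 made up 21.9% and 29.1%. The remaining 4 members were far less abundant, at 1.77 to 24.0 FPKM with the control shRNA and 0.211 to 24.9 FPKM after USP22 shRNA.

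**Figure D1:**
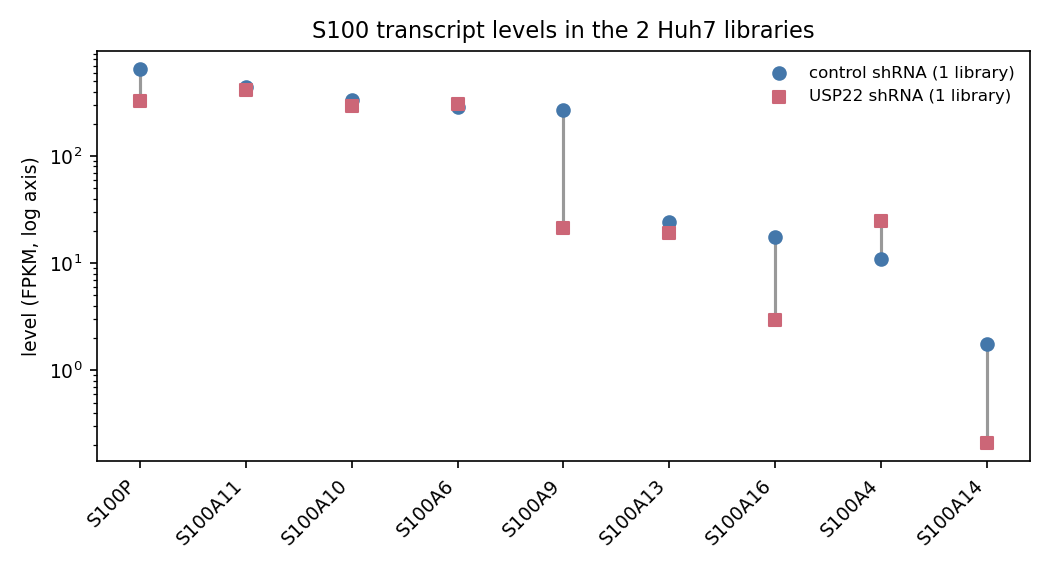
Level of each listed S100 member (FPKM, log axis) in the control shRNA library (circles) and the USP22 shRNA library (squares), ordered by the control level, with 1 library each and no error bars. S100A9 dropped from 268 to 21.5 FPKM, S100A16 from 17.7 to 2.93 FPKM and S100A14 from 1.77 to 0.211 FPKM, S100A4 stood at 10.9 and 24.9 FPKM, and the squares of S100A6, S100A10 and S100A11 lie on or beside their circles.

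Each ratio is the log2 of the USP22 shRNA value plus 1 divided by the control value plus 1, so changes of low genes are understated, and genes past 2-fold on this scale, a log2 ratio of 1 up or down, were counted as higher or lower without any test. A mean of at least 1 FPKM over both libraries was required, which 8 members met, each of them at 1 FPKM or more in both libraries. Some genes of the related lists met it through the library in which they were higher, with the other library under 1 FPKM. S100A9 and S100A16 passed 2-fold downwards after USP22 shRNA, 2 of 8 members, where 12.2% of 10195 genes did. S100A4 passed it upwards, 1 of 8 members, where 24.1% of genes did. With no filter, 3 of the 9 listed members passed downwards, S100A14 being the addition, and 1 upwards, where 10.6% and 21.2% of the 11976 genes did. With the GC trend removed the same 3 members passed the rule in the same directions, where 8.91% of 10166 genes were lower and 8.46% higher. The median of the 8 members was -0.25, against 0.098 over all genes past the filter, and it was 0.21 with the GC trend removed, against 0.003. The sign of the family's median therefore depends on the treatment of GC content.

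S100A9 (ENSG00000163220.10_2) is the larger subunit of calprotectin, which binds calcium, zinc and manganese and is a ligand of TLR4. It stood at 268 FPKM in the control, rank 96 of the 11976 genes by level, and at 21.5 FPKM after USP22 shRNA, rank 1832. The level was 12.4-fold lower. Its log2 ratio of -3.58 had rank 4 from the lowest of 10195 genes, and with the GC trend removed it was -3.11, rank 5 from the lowest of 10166. Over 8 ways of computing it, with other pseudocounts, scalings and trend corrections, it ranged from -3.81 to -2.81. Its usual partner S100A8 was not in the tables, so the pair cannot be compared.

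S100A16 (ENSG00000188643.10_2) is a widely expressed family member. It stood at 17.7 FPKM with the control shRNA and 2.93 FPKM after USP22 shRNA, 6.04-fold lower. The log2 ratio of -2.25 had rank 89 from the lowest of 10195 genes, and the GC-corrected value of -1.75 had rank 175 of 10166. It ranged from -2.55 to -1.52 over the 8 ways, the ends coming from pseudocounts of 0.1 and 5.

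S100A14 (ENSG00000189334.8_2), an epithelial member, is the nearest listed neighbour of S100A16 on the chromosome. Its level was 1.77 FPKM with the control shRNA and 0.211 FPKM after USP22 shRNA, 8.41-fold lower. Its mean of 0.991 FPKM lay just under the filter, so it entered only the count with no filter. Its log2 ratio was -1.19 as computed, -2.59 with a pseudocount of 0.1, -0.38 with a pseudocount of 5 and -0.84 with the GC trend removed. Both values are low, and the depth behind them is unknown.

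S100P (ENSG00000163993.6_2), first found in placenta and a ligand of ezrin, was the most abundant member in the control at 643 FPKM, rank 29 of all listed genes. It stood at 326 FPKM after USP22 shRNA, rank 48, which is 1.97-fold lower. The log2 ratio of -0.98 lay just outside the size rule. It was -1.08 with ratios centred on their median, -1.22 with TMM scaling and -0.70 with the GC trend removed.

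S100A4 (ENSG00000196154.11_3), also called metastasin, binds the heavy chain of non-muscle myosin IIA and is a marker of fibroblasts and motile cells. It stood at 10.9 FPKM with the control shRNA and 24.9 FPKM after USP22 shRNA, 2.27-fold higher. The log2 ratio of 1.12, rank 2141 from the highest, lay just inside the size rule. It was 0.91 with a pseudocount of 5 and 0.88 with TMM scaling, both short of the rule. Genes of like GC content were mostly lower, with the trend at -0.31 for a transcript of 53.2% GC, and once it was removed the value was 1.43, rank 308 from the highest of 10166. S100A4 and S100A9, the members with the highest and lowest ratio, kept opposite signs under each of the 8 ways of computing them. All 8 ways use the same 2 libraries, so this is no replicate check.

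**Figure D2:**
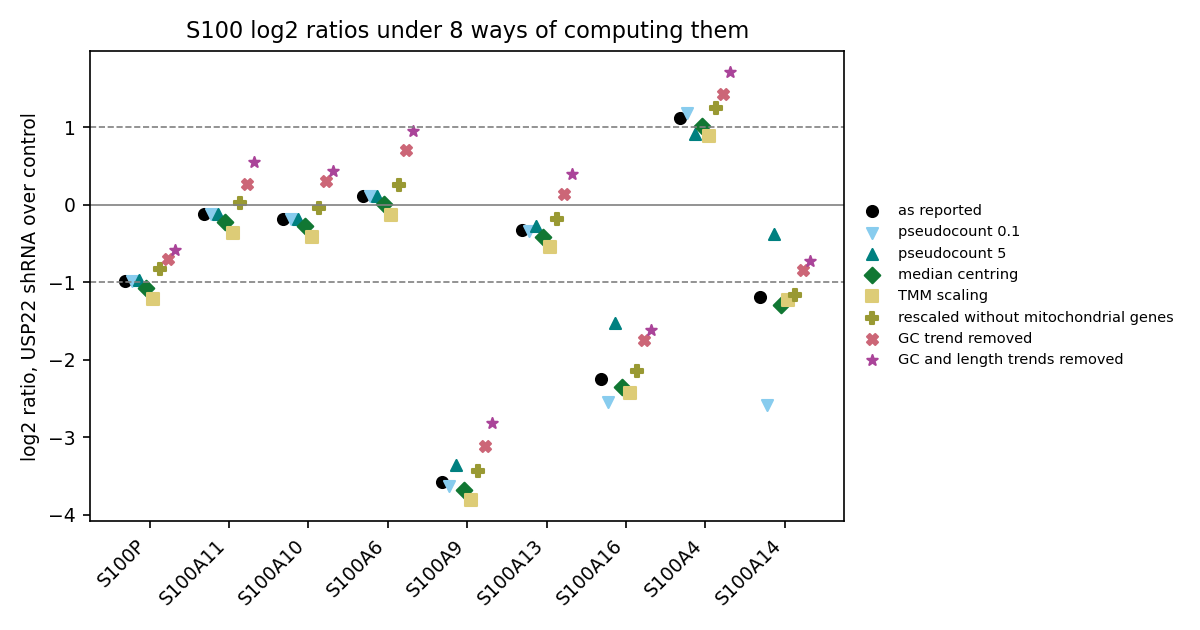
Log2 ratio of each listed S100 member (USP22 shRNA over control) as reported (black circles) and under 7 alternative pseudocounts, scalings and trend corrections, with dashed lines at the 2-fold rule and no error bars, since each library is single. S100A9 and S100A16 stay below -1 throughout, S100A4 lies between 0.88 and 1.71, and the signs of S100A6, S100A10, S100A11 and S100A13 turn with the setting.

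The sequences before the starts of these genes show how unlike the promoters of the members are. The 250 bases before the annotated start are given for the 3 members that passed the size rule and for S100P, which lay just outside it, and further on for a pair of nearly level members, from RefSeq on GRCh38.p14, a later build than the GRCh37 named by the submitters. All 10 members were matched, with 15 starts in total, 3 of them of S100A8. S100A9 is at chr1:153357604-153357853, plus strand, S100A16 at chr1:153613138-153613387, minus strand, the first of its 2 starts in the table, S100P at chr4:6693628-6693877, plus strand and S100A4 at chr1:153545807-153546056, minus strand. Sequences run 5′ to 3′ on the gene's strand, and capitals mark each CG dinucleotide and a TATAA match at 40 to 20 bases before the start.
S100A9: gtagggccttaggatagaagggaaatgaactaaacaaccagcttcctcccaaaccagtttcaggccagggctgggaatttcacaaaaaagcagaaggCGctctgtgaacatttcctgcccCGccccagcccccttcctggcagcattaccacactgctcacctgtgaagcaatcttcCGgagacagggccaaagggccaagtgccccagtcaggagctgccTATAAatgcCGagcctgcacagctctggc
S100A16: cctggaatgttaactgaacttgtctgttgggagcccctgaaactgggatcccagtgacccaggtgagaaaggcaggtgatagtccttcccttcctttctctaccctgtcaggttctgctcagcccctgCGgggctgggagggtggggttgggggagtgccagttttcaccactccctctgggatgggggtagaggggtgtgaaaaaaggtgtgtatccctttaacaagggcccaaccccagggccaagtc
S100P: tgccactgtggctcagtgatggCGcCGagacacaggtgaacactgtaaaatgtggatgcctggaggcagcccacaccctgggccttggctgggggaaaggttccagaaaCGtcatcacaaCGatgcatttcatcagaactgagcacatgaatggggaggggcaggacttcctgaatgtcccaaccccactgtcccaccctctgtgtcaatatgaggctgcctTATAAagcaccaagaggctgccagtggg
S100A4: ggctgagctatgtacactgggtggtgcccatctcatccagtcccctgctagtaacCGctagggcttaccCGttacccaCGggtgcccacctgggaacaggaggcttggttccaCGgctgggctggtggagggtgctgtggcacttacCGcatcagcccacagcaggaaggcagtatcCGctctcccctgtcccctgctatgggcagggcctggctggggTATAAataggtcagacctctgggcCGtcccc
These windows hold few CG dinucleotides, 4 in S100A9, 1 in S100A16, 4 in S100P and 7 in S100A4, against a median of 11 over the 35116 promoters of the RefSeq table. The second start of S100A16 holds 6, and the start of S100A14 holds 4. A TATAA match, which 3.91% of all promoters hold in this window on the reading strand, is present at S100A9, S100P, S100A4 and S100A14 and at neither start of S100A16.

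S100A11, S100A10 and S100A6 were abundant and nearly level between the libraries. S100A11 (ENSG00000163191.5_2), a partner of annexin A1, stood at 445 FPKM with the control shRNA and 409 FPKM after USP22 shRNA. S100A10 (ENSG00000197747.8_2), also called p11, does not respond to calcium and forms a complex with annexin A2 at the membrane. It stood at 334 and 294 FPKM. S100A6 (ENSG00000197956.9_2), also called calcyclin, stood at 285 and 307 FPKM. S100A13 (ENSG00000189171.14_3), which takes part in the unconventional export of FGF1 and IL1A, was less abundant, at 24.0 and 19.0 FPKM. Their log2 ratios were -0.12, -0.18, 0.11 and -0.33 in that order, all well inside the size rule. With the GC trend removed they were 0.27, 0.31, 0.70 and 0.14, and with TMM scaling -0.36, -0.42, -0.13 and -0.55, so that no direction holds for any of these 4 genes. S100A6 came closest to the rule, at 0.95 with GC and length trends both removed. Annotated exons of S100A13 overlap S100A1 on the opposite strand and an unnamed transcript on the same strand, and those of S100A6 overlap an antisense gene. No source used here says whether quantification took strand into account, so both genes' values are uncertain.

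A pair of these promoters is shown for comparison with the sequences above. S100A6 is at chr1:153535992-153536241, minus strand, and S100A11 at chr1:152037005-152037254, minus strand, with the same marks in capitals.
S100A6: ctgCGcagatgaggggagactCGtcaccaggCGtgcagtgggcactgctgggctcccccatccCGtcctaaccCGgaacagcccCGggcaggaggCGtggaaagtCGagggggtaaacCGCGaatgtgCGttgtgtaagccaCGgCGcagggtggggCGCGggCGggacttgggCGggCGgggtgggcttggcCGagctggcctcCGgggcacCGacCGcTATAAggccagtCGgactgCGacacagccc
S100A11: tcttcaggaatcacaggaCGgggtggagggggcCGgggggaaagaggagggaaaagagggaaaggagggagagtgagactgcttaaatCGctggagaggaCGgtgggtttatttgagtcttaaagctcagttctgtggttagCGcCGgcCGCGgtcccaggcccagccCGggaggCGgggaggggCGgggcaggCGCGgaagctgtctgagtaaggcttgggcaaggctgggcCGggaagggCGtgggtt
The S100A6 window holds 24 CG dinucleotides and the S100A11 window 15, and S100A10, not shown, holds 24. The 3 starts of S100A13 hold 15, 10 and 8. Of the 4 nearly level members, 3 have windows above the promoter median of 11 and S100A13 has starts on both sides of it. The starts of the 3 members that passed the size rule lie below it, as do those of S100P and S100A14, a grouping drawn after the values were seen. How often promoters lie below this median among all changed and all unchanged genes was not counted. A link between CG content and ratio was not tested. The listed S100 genes outside the membership do not follow this grouping. The start of S100A3 holds 4 CG dinucleotides and those of S100A2 hold 4 and 3. Their log2 ratios of 0.90 and -0.16 did not pass the size rule, and S100A2 lay under the filter. A TATAA match is also present at S100A6 and at the S100A13 start with 10 CG dinucleotides. In all, 7 of the 15 member starts, S100A8 included, hold one. Of the other motifs searched on both strands, GGGCGG, a letter pattern of GC boxes, was found at 6 of 15 member starts and in 42.6% of all promoters. CCAAT was found at 3 starts and in 32.0%, and TTGCNNAA, a pattern of C/EBP sites, at 1 start, that of S100A11, and in 9.05%. TGANTCA, a pattern of AP-1 sites, was found at none of the 15 starts and in 6.57% of all promoters. These matches describe letters in a window and not binding.

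**Figure D3:**
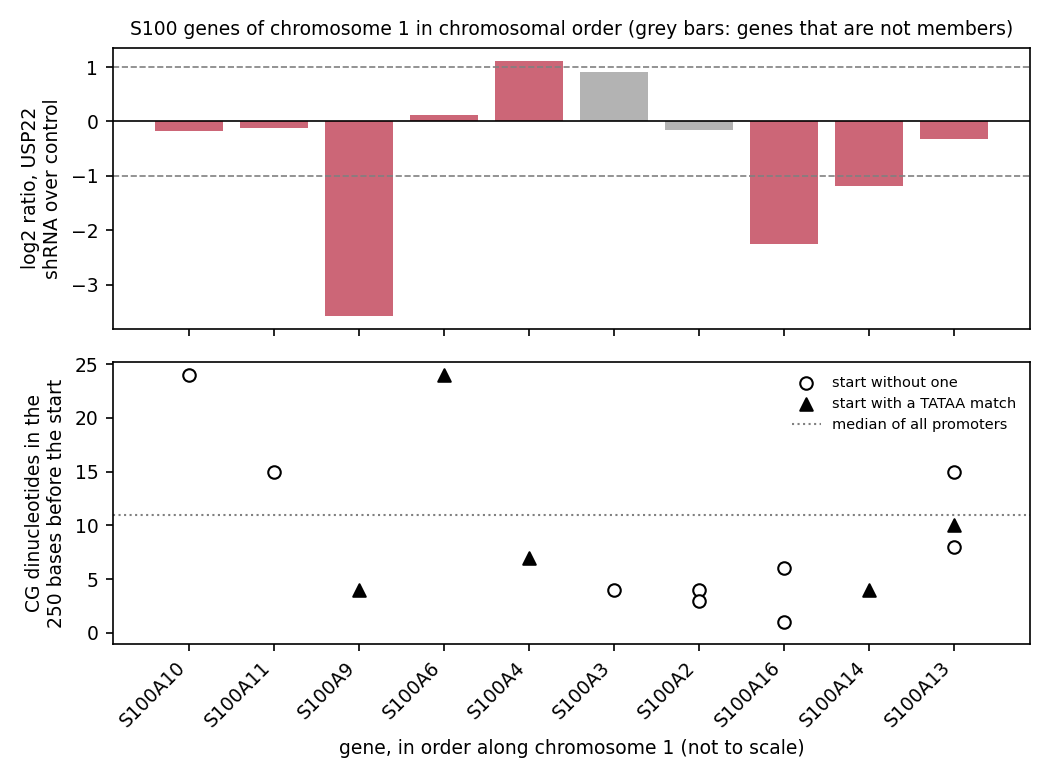
Upper panel, log2 ratio (USP22 shRNA over control) of the 10 listed S100 genes of chromosome 1 in chromosomal order, with red bars for members, grey bars for S100A3 and S100A2, and dashed lines at the 2-fold rule. Lower panel, CG dinucleotides in the 250 bases before each RefSeq start, with triangles for starts that hold a TATAA match and a dotted line at the median of 11 over all promoters. S100A16 and S100A14 are the neighbours with the lowest pair of bars, at -2.25 and -1.19, and S100A4 and S100A3 stand at 1.12 and 0.90. S100A10, S100A11 and S100A6, with 15 to 24 CG dinucleotides, have the ratios of -0.18, -0.12 and 0.11, which turn sign with the setting. S100A2, at -0.16, has starts with 4 and 3 CG dinucleotides, and the start of S100A3 holds 4.

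The GENCODE 29 annotation places 64 protein-coding genes between S100A10 and the far end of S100A13 on chromosome 1, and 10 of these are in the tables, all of them S100 genes. Of the others, S100A8, S100A12, S100A7, S100A5 and S100A1 and the genes of the cornified envelope and of filaggrin type were not in the tables and are not analysed here. The listed genes outside the membership were S100A3 and S100A2. S100A3 (ENSG00000188015.9_3), a cysteine-rich member best known from hair cuticle, stood at 2.18 FPKM with the control shRNA and 4.93 FPKM after USP22 shRNA, 2.26-fold higher, with a log2 ratio of 0.90 (1.46 after GC correction). This is close to the 2.27-fold of S100A4, whose annotated span contains S100A3 on the same strand without a shared exon. S100A2 (ENSG00000196754.10_2), which lies between S100A3 and S100A16, stood at 0.748 and 0.569 FPKM, under the filter.

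Some listed neighbours on the chromosome had like ratios, such as S100A10 and S100A11 (-0.18 and -0.12) or S100A4 and S100A3 (1.12 and 0.90), and others did not. S100A16 was 6.04-fold lower (log2 ratio -2.25), while S100A13 was 1.27-fold lower (-0.33). Between them, S100A14 was 8.41-fold lower, but with low values under the filter, and its log2 ratio was -1.19. The level of S100A16 relative to S100A13 was 0.738 with the control shRNA and 0.155 in the USP22 shRNA library. S100A4 relative to S100A6, which is separated from it by S100A5 alone among protein-coding genes, was 0.0385 and 0.0812. S100A9 relative to S100A6 went from 0.940 to 0.0701. These within-library ratios do not depend on the scaling between libraries.

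The members' transcripts are short and alike in GC content, so the trend across genes touches them in a similar way. GC content of the longest coding transcript ranged from 52.8% in S100P to 60.2% in S100A6, and length from 577 bases in S100A9 to 1279 bases in S100P. The trend at these GC contents ran from -0.28 to -0.59, which moves all members upwards when removed. After removal, 5 of the 9 members lay above the trend and S100A9, S100A16, S100A14 and S100P below it. The members then spread from -3.11 for S100A9 to 1.43 for S100A4, against -3.58 to 1.12 before.

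**Figure D4:**
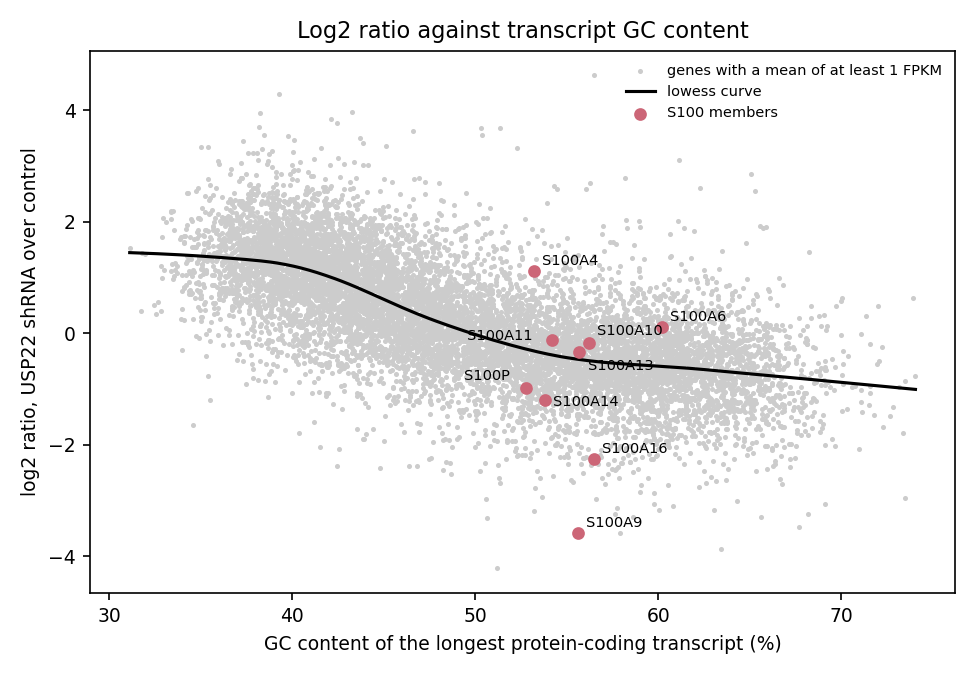
Log2 ratio (USP22 shRNA over control) of each gene with a mean of at least 1 FPKM (grey) against the GC content of its longest coding transcript, with the lowess curve in black and the 9 listed S100 members in red, S100A14 included although its mean is 0.991 FPKM. The members lie between 52.8% and 60.2% GC, with S100A9 at -3.58 and S100A16 at -2.25 far below the curve and S100A4 at 1.12 above it.

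Transcripts of proteins that S100 members bind inside the cell were higher more often than lower, as were all genes (24.1% higher and 12.2% lower). Of 10 annexin and membrane partners, 9 passed the filter, 5 passed 2-fold upwards and none downwards, at a median of 1.18 against 0.098 over all genes. ANXA1, the phospholipid-binding partner of S100A11, stood at 2.46 FPKM with the control shRNA and 66.4 FPKM after USP22 shRNA, a log2 ratio of 4.28 (3.03 after GC correction). ANXA2, the partner of S100A10, stood at 54.6 and 125 FPKM, a log2 ratio of 1.18 (0.79 after GC correction). The giant scaffold protein AHNAK, held by the S100A10 and annexin A2 complex, stood at 26.7 and 102 FPKM, and IQGAP1, a scaffold bound by S100P, at 3.07 and 21.5 FPKM. SUGT1, a co-chaperone bound by S100A6, was the fifth, at 0.968 and 4.21 FPKM, a log2 ratio of 1.40 (0.08 after GC correction). SUGT1 met the filter only through its level after USP22 shRNA. ANXA11, at 19.2 and 9.28 FPKM, had the lowest ratio, -0.97. With the GC trend removed 4 were higher, where 8.46% of all genes were, namely ANXA1, AHNAK, IQGAP1 and ezrin (EZR, 1.01), none was lower, where 8.91% were, and the median was 0.79 against 0.003. The level of S100A10 relative to ANXA2 was 6.12 with the control shRNA and 2.36 in the USP22 shRNA library, and that of S100A11 relative to ANXA1 was 181.0 and 6.17.

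Of 11 cytoskeletal and nuclear partners, 5 passed 2-fold upwards, none downwards, against 24.1% and 12.2% of all genes, and the median was 0.91. The actin-binding caldesmon CALD1 had the highest ratio, at 3.34 FPKM with the control shRNA and 42.5 FPKM after USP22 shRNA. The aminopeptidase METAP2 stood at 5.41 and 31.5 FPKM, the translocase HLTF at 0.993 and 7.50, the non-muscle myosin MYH10 at 8.61 and 22.9, and the ubiquitin ligase MDM2 at 0.931 and 3.30. HLTF and MDM2 met the filter only through their levels after USP22 shRNA, so their place among the 5 rests partly on the filter. MYH9, the myosin IIA heavy chain bound by S100A4, stood at 177 and 306 FPKM, a log2 ratio of 0.79 (1.35 after GC correction). With the GC trend removed 4 were higher, CALD1, MYH9, MYH10 and METAP2, and none lower, against 8.46% and 8.91% of all genes, at a median of 0.61.

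Receptors for released S100 proteins were thinly covered. Of 5 looked for, BSG (basigin) and AGER were listed. BSG, which binds S100A9, stood at 155 FPKM with the control shRNA and 62.0 FPKM after USP22 shRNA, a log2 ratio of -1.31 (-0.65 after GC correction). AGER stood at 0.831 and 0.849 FPKM, under the filter. TLR4, CD36 and CD33 are not analysed here. Of the plasminogen system, which the S100A10 and annexin A2 complex activates at the cell surface, 4 of 7 genes passed the filter. None of the 4 passed the size rule, where 24.1% of all genes were higher and 12.2% lower, at a median of -0.06 against 0.098. With the GC trend removed none passed it either, where 8.46% and 8.91% of all genes did, and the median was 0.15 against 0.003. The protease inhibitor SERPINE2 had the highest ratio, at 1.47 and 3.38 FPKM. Of the S100A13 export partners, FGF1 was listed at 0 with the control shRNA and at 0.807 FPKM after USP22 shRNA and SYT1 at 0.0648 and 0.995, both under the filter.

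Among transcription factors known to act at S100A8 and S100A9, 12 passed the filter. Of these, 2 were at least 2-fold higher and 1 lower, where 24.1% and 12.2% of all genes were, and the median was -0.04. CEBPA, a myeloid and hepatocyte factor, was the lower one, at 267 FPKM with the control shRNA and 48.9 FPKM after USP22 shRNA, a log2 ratio of -2.42 (-1.67 after GC correction). CEBPB stood at 80.1 and 47.5 FPKM, a log2 ratio of -0.74 (0.02 after GC correction). HIF1A (1.96) and the glucocorticoid receptor NR3C1 (1.80) were the higher ones. NR3C1 stood at 0.712 FPKM with the control shRNA and 4.97 FPKM after USP22 shRNA, and met the filter only through the latter. With the GC trend removed HIF1A and NR3C1 were at 0.61 and 0.54. With that trend removed, 1 of the 12 factors was higher, JUNB at 1.20, where 8.46% of all genes were. CEBPA was the 1 lower factor, where 8.91% of all genes were lower, and the median was 0.15. STAT3 stood at 13.2 and 14.3 FPKM and NFKB1 at 12.4 and 5.79 FPKM.

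Acute-phase and granule genes, which are often induced with calprotectin, were few in the tables. Of 9 looked for, 5 were listed, 3 of them at least 2-fold lower, where 12.2% of all genes were, and none higher, where 24.1% were, at a median of -1.16. These were haptoglobin (HP), at 4.71 FPKM with the control shRNA and 1.16 FPKM after USP22 shRNA, the siderophore-binding LCN2, at 2.29 and 0.355 FPKM, and ORM1, at 90.9 and 40.2 FPKM. LCN2 met the filter only through its level with the control shRNA. SAA1 stood at 17.1 and 17.6 FPKM. With the GC trend removed HP (-1.38) alone was past the rule, where 8.91% of all genes were lower, at a median of -0.86.

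Markers of myeloid cells, the usual source of S100A9, were given beside it. Of 11 looked for, 4 were listed, and the defining markers PTPRC, ITGAM, MPO and CSF1R were not in the tables and are not analysed here. The summed level of the 4 was 395 FPKM with the control shRNA and 99.3 FPKM after USP22 shRNA, nearly all of it from lysozyme (LYZ), at 386 and 93.6 FPKM, a log2 ratio of -2.03 (-3.11 after GC correction). CSF3R stood at 6.47 and 4.87 FPKM, CD14 at 1.40 and 0.693 and AIF1 at 0.550 and 0.131. Of 9 markers of squamous epithelium, DSG3 was listed, at 0.114 and 1.99 FPKM. Of 5 markers of endothelium and stroma, PDGFRB, at 1.68 and 1.31 FPKM, and COL1A2, at 11.2 and 13.7 FPKM, were listed. The part of other cell types in the S100A9 result was not tested.

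**Figure D5:**
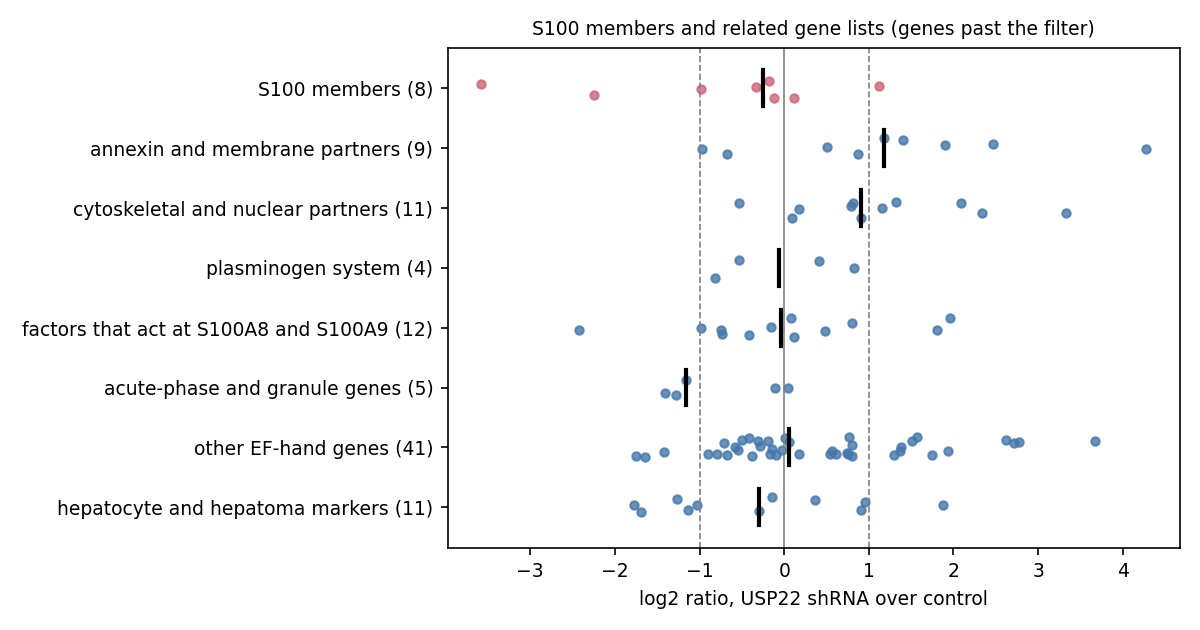
Log2 ratio (USP22 shRNA over control) of each gene past the filter in the S100 family and in 7 related lists, with the number of genes in brackets, black bars at the list medians, dashed lines at the 2-fold rule and vertical scatter for display only. The S100 members spread from -3.58 to 1.12 around a median of -0.25, which is 0.21 with the GC trend removed, and the annexin and membrane partners have a median of 1.18, which is then 0.79.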

How the data were processed

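RNA-seq was compared between 1 control shRNA and 1 USP22 shRNA library of Huh7 cells, grouped by the labels. HISAT2 2.0.4, StringTie 1.3.0 and GRCh37 appear in the submitters' processing notes without their roles. The deposited tables give 1 value per gene with no unit in the header, and the values were read as FPKM, an assumption that leaves TPM possible. How the 11976 genes were chosen, and the annotation, are not given in the sources used here. Low values times transcript length were searched for equal steps, as whole reads would leave. The best strength was 0.0768 with the control shRNA and 0.0950 with the USP22 shRNA, where 1 means that all values lie on steps, so no read counts were recovered and depth is unknown.

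From the deposited FPKM, log2 ratios were computed with a pseudocount of 1, a filter at a mean of 1 FPKM and a 2-fold rule of size. A single library per group allows no test. GC content and length came from the longest coding transcript in GENCODE 29 (11911 of 11976 identifiers matched), and their trends were removed by lowess over a 30% span (statsmodels 0.14.6). These steps were tested on simulated data. Where a symbol had 2 rows (7 symbols), the more abundant row was used. Named genes were the members, the other listed S100 genes, in each list the highest and lowest ratio and, in lists of up to 13, those past the size rule, with a few more named for their known link to a member after their values were seen, and the 3 genes nearest in level to the members with the lowest and highest ratio. A few list genes are not reported here. The members and lists were chosen with earlier results of these data known. The alternatives tried were removal of the GC trend, or of GC and length trends, a 1.5-fold rule, no filter or one at 5 FPKM, pseudocounts of 0.1 or 5, and scaling by the median, by TMM or without mitochondrial genes.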

Additional observations from a re-analysis of the deposited data

How the results depend on the processing

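S100A9 and S100A16 were at least 2-fold lower under every alternative run. The count of lower members, 2 as reported, was 3 with median centring or TMM scaling (S100P added), with no filter (S100A14 added) and with a 1.5-fold rule (S100P added). The count of higher members, 1 as reported, was 0 with a pseudocount of 5 and 0 with TMM scaling, where S100A4 fell short. The median log2 ratio of the members, -0.25 as reported, was -0.26 with a pseudocount of 0.1, -0.23 with a pseudocount of 5, -0.35 with median centring, -0.49 with TMM scaling, -0.11 when rescaled without mitochondrial genes, -0.33 with no filter, 0.21 with the GC trend removed and 0.41 with GC and length trends removed. TMM scaling moves the log2 ratio of an abundant gene down by 0.24 and rescaling without mitochondrial genes moves it up by 0.14, and the pseudocount makes the move smaller for low genes such as S100A14. No paired analysis was possible because each group holds 1 library. Depth is unknown, so no counting error can be set beside any value, which bears most on S100A14.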

Other observations

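Other EF-hand genes, which share the calcium-binding fold with the S100 family, ran from a log2 ratio of -1.75 to 3.67, where the S100 members ran from -3.58 to 1.12. Of 41 past the filter, 11 were at least 2-fold higher and 3 lower after USP22 shRNA, where 24.1% and 12.2% of all genes were, at a median log2 ratio of 0.06, and with the GC trend removed 8 were higher and 4 lower, where 8.46% and 8.91% of all genes were, at a median of 0.16. The calpain subunit CAPN2 had the highest ratio, at 3.43 FPKM with the control shRNA and 55.5 FPKM after USP22 shRNA, and the neuronal calcium sensor NCS1 the lowest, at 6.10 and 1.11 FPKM.

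The genes nearest to S100A9 in the plane of log2 (FPKM + 1) of both libraries were TOMM6, at 169 and 28.5 FPKM and a distance of 0.763, HIST1H1C, at 222 and 40.1 FPKM and 0.908, and TMEM141, at 141 and 18.5 FPKM and 0.945. The nearest to S100A4 were SYPL1, at a distance of 0.00516, MCU, at 0.0348, and YIPF5, at 0.0586. These 3 had log2 ratios of 1.04 to 1.12 like that of S100A4, but with the GC trend removed they were at -0.20, 0.32 and -0.30, where S100A4 was at 1.43. The transcripts of SYPL1, MCU and YIPF5 had GC contents of 37.6%, 44.0% and 36.9%, against 53.2% for S100A4. Likeness over 2 libraries rests on 2 values a gene.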
